A study of Homo sapiens with 3 samples.

Results

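MicroRNA host genes are transcription units that carry microRNA hairpins in their exons or introns. In the deposited expression table, 83 genes were long noncoding RNAs (lncRNAs) whose GENCODE symbol starts with MIR and ends with HG, the form used for microRNA hosts, out of 62754 genes in all. They lay on 22 chromosomes. The rule used names and gene types only and no measured value. RNA had been sequenced from 3 replicates of MCF10A, an immortalised, non-tumorigenic human breast epithelial line grown in culture. The cells carried the empty vector of a doxycycline-inducible retroviral system, had been selected with puromycin and received no doxycycline, and RNA was taken 27 h after seeding. The vector held no gene of interest, so that all 3 replicates are of 1 condition in 1 line and no comparison between conditions is possible. The labels do not say whether the replicates came from separate cultures, and their spread may be technical.

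Levels are given as TPM, which scale the reads of a gene by its length and by the total of the library. A gene whose mean reached 1 TPM is called expressed below. The 3 replicates held 15273329, 15446347 and 11166546 reads on genes, and 62700 of the 62754 genes were found in the annotation. Markers of basal epithelium were present, with all 5 on the list at or above 1 TPM and KRT5 and KRT14 at means of 6612 and 4144 TPM. The basal list summed to between 11891 and 15345 TPM in the replicates. For other cells, the fibroblast list summed to 13.6 to 14.8 TPM. Within it DCN and COL1A1 had means of 9.05 and 4.96 TPM, and COL1A2 and LUM had 0 reads. The endothelial list summed to 1.57 to 1.997 TPM, with PECAM1 at a mean of 1.77 TPM and CDH5 at 0 reads. The immune list summed to 1.15 to 2.96 TPM, with CD14 at a mean of 1.96 TPM and CD3E at 0 reads. Of the epithelial list, 4 of 5 genes reached 1 TPM, and KRT19 had 1 read in all. The hormone receptors of luminal cells, ESR1 and PGR, had 3 and 1 reads in all.

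In the nucleus, DROSHA and DGCR8 cut the hairpin out of a long primary transcript. XPO5 then exports it, DICER1 trims it to a duplex of short strands, and 1 strand is loaded on an Argonaute protein. The loaded strand pairs with messenger RNAs mainly through its seed, bases 2 to 8. The libraries had intended inserts of 200 to 300 bases, so the values below are levels of host transcripts and not of mature microRNAs.

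The mature sequences of 30 microRNAs from 16 expressed hosts are shown because they tell which families the hosts carry, with the seed in capitals (RefSeq, GRCh38.p14, 5′ to 3′). These 30 held 21 distinct seeds, and 6 seeds occurred in more than 1 of them. The first set comes from hosts of microRNAs known for their presence in epithelial cells. MiR-205 is carried by *MIR205HG*, miR-200c and miR-141 by *MIR200CHG*, and miR-31 by *MIR31HG*.
hsa-miR-205-5p: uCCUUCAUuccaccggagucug
hsa-miR-200c-3p: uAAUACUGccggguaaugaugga
hsa-miR-141-3p: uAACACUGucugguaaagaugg
hsa-miR-31-5p: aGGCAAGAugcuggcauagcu

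The second set is the let-7 family. Among the 30 printed microRNAs, the seed GAGGUAG was shared by 5 mature forms. They are carried by 4 expressed hosts, *MIRLET7BHG*, *MIRLET7A1HG*, *MIR100HG* and *MIRLET7IHG*. Seeds of microRNAs that are not printed were not compared. *MIR100HG* also carries miR-100 and miR-125b, whose seeds differ from that of let-7.
hsa-let-7a-5p: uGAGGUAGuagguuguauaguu
hsa-let-7b-5p: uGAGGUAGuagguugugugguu
hsa-let-7d-5p: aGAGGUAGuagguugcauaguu
hsa-let-7f-5p: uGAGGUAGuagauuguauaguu
hsa-let-7i-5p: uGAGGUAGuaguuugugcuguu
hsa-miR-100-5p: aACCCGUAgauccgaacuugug
hsa-miR-125b-5p: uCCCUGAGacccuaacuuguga

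The third set is carried by hosts linked with growth and with p53, *MIR17HG*, *MIR222HG* and *MIR34AHG*. Within the *MIR17HG* cluster miR-17 and miR-20a shared the seed AAAGUGC, and miR-19a and miR-19b shared GUGCAAA. MiR-221 and miR-222 of *MIR222HG* shared GCUACAU.
hsa-miR-17-5p: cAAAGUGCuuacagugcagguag
hsa-miR-18a-5p: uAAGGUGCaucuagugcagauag
hsa-miR-19a-3p: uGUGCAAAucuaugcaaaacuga
hsa-miR-20a-5p: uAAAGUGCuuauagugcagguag
hsa-miR-19b-3p: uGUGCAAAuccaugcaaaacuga
hsa-miR-92a-3p: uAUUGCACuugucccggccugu
hsa-miR-221-3p: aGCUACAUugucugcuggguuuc
hsa-miR-222-3p: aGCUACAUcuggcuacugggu
hsa-miR-34a-5p: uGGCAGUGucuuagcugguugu

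The last set comes from other conserved hosts. MiR-29b and miR-29c of *MIR29B2CHG* shared the seed AGCACCA. MiR-181a and miR-181b shared ACAUUCA and were each carried by both *MIR181A1HG* and *MIR181A2HG*. The remaining hosts printed are *MIR23AHG* for miR-23a, miR-27a and miR-24, *MIR503HG* for miR-503, and *MIR193BHG* for miR-193b and miR-365a. The set is not complete. Among those left out are miR-22 of *MIR22HG* and miR-424, whose hairpin lies across the outer edge of *MIR503HG*.
hsa-miR-29b-3p: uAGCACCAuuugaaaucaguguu
hsa-miR-29c-3p: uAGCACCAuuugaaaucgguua
hsa-miR-181a-5p: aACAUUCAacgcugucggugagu
hsa-miR-181b-5p: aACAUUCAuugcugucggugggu
hsa-miR-23a-3p: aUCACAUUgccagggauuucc
hsa-miR-27a-3p: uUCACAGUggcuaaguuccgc
hsa-miR-24-3p: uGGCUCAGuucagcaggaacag
hsa-miR-503-5p: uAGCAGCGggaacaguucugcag
hsa-miR-193b-3p: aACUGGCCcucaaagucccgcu
hsa-miR-365a-3p: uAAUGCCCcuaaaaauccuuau

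Of the 83 host genes, 27 were expressed, which is 32.5%, and these lay on 16 chromosomes. The background was 24.9% of all genes in the table and 12.2% of the 18866 lncRNA genes, and 56.7% of protein-coding genes. Of the 28 lncRNA genes that host small nucleolar RNAs (snoRNAs), 24 were expressed, or 85.7%. In every replicate, 26 hosts reached 1 TPM (31.3%, against 7.94% of lncRNA genes). One host stood above 100 TPM, 8 were at or above 10 TPM, 6 lay from 5 to under 10 TPM and 13 from 1 to under 5 TPM.

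**Figure D1:**
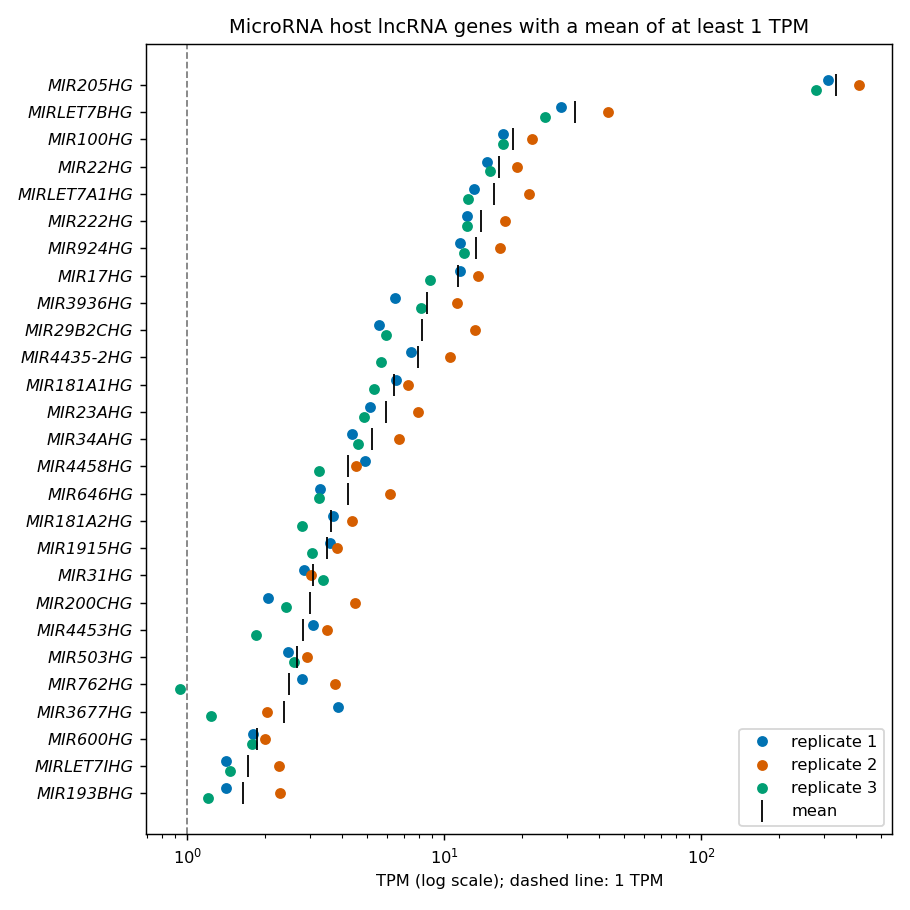
TPM (log scale) of the 27 microRNA host lncRNA genes whose mean reached 1 TPM, in 3 replicates (coloured points) with the mean (black bar), and with 1 TPM as a dashed line. *MIR205HG* lies far to the right of all others, and the orange points of replicate 2 are the highest of their row in 24 of 27 genes.

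*MIR205HG* (ENSG00000230937, hg38 chr1:209428817-209432848, plus strand) was by far the most abundant host. It stood at 310.5, 409 and 279 TPM in replicates 1, 2 and 3, a mean of 333 ± 67.8 (SD, n = 3), from 5475, 7420 and 4193 reads. It ranked 3rd among all lncRNA genes by mean TPM. In each replicate it was 9.43 to 11.3 times the next host, *MIRLET7BHG*. It made up 62.5, 60.7 and 62.1% of the summed TPM of the 83 hosts, a mean of 61.8 ± 0.964%. The share thus moved little while the level itself was highest in replicate 2.

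The hairpin gene MIR205 (chr1:209432133-209432242, plus strand) lies across an exon edge of its host, with 39 of its 110 bases in annotated host exons. It had 186, 235 and 99 reads of its own, or 324, 398 and 203 TPM. Which transcripts these reads came from was not tested. The hairpin, printed as the only precursor whose gene had over 100 reads, carries miR-205-5p at its bases 34 to 55, in capitals (RefSeq, GRCh38.p14).
MIR205: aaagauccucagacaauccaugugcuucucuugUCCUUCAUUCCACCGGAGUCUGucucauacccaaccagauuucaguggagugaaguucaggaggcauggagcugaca

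The other epithelial hosts were expressed at far lower levels. *MIR31HG* (ENSG00000171889, chr9:21380073-21559891, minus strand) stood at 2.85, 3.03 and 3.38 TPM, from 98, 107 and 99 reads, with a mean of 3.09 ± 0.272. It was the only expressed host that was highest in replicate 3. Its 95% Poisson intervals overlapped, at 2.31 to 3.47, 2.48 to 3.66 and 2.75 to 4.12 TPM. *MIR200CHG* (ENSG00000257084, chr12:6963226-6964447, plus strand) stood at 2.06, 4.51 and 2.42 TPM, from only 4, 9 and 4 reads. Its 95% Poisson intervals, which cover counting error only, were 0.562 to 5.28, 2.06 to 8.57 and 0.660 to 6.21 TPM and overlapped each other, so no difference between replicates was detectable at this depth. For *MIR31HG*, 42.2% of its canonical transcript, the one that GENCODE marks as representative of the gene, lay opposite exons on the other strand (*IFNA12P* and *IFNWP2*). Whether strand was used in counting is not given in the sources used here.

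The interval around *MIR31HG* on chromosome 9p21 was uneven. *KLHL9*, which lies 44.7 kb away and encodes an adaptor of a ubiquitin ligase, stood at 12.8 ± 1.70 TPM, and *FOCAD* on the same side at 20.4 ± 2.02 TPM. *IFNE*, an interferon gene within the span of the host, stood at 0.644, 1.25 and 1.06 TPM. On the other side *MTAP*, an enzyme of methionine salvage 242.7 kb from the host, had 0 reads in every replicate, which allows up to 0.0791 TPM. Next beyond *MTAP*, *CDKN2A* and *CDKN2B* also had 0 reads, which allows up to 0.569 and 0.155 TPM. *CDKN2B-AS1* had 1 read in all, and *DMRTA1*, farther out, stood at 0.625 ± 0.0790 TPM. Expressed and silent genes lay on both sides, with *HACD4*, between *FOCAD* and *KLHL9*, at 0 reads and *ELAVL2*, far beyond *MTAP*, at 6.28 ± 0.731 TPM. Of the 10 neighbours listed, 3 were at or above 1 TPM by their mean, against 24.9% of annotated and 56.7% of protein-coding genes. In every replicate 4 had 0 reads, against 58.1% of annotated and 26.2% of protein-coding genes. DNA copy number was not analysed here.

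Of 5 hosts of hairpins named let-7, 4 were expressed, against 12.2% of lncRNA genes. This and the other groups of hosts by role were made after their values were seen. *MIRLET7BHG* (ENSG00000197182, chr22:46053869-46113928, plus strand), which carries let-7a and let-7b, stood at 28.4, 43.4 and 24.7 TPM, a mean of 32.1 ± 9.92, and ranked 41st among lncRNA genes. *MIR100HG* (ENSG00000255248, chr11:122028325-122556721, minus strand) followed at 17.0, 21.9 and 16.9 TPM. *MIRLET7A1HG*, the host of let-7a, let-7f and let-7d, stood at 13.1, 21.4 and 12.4 TPM. *MIRLET7IHG* was much lower, at 1.42, 2.27 and 1.46 TPM. The fifth, *MIR99AHG*, the host of miR-99a, let-7c and miR-125b-2, stayed below 1 TPM in every replicate, at 0.657, 0.825 and 0.673 TPM from 31, 40 and 27 reads. This call depends on the gene length used: with the canonical transcript its mean was 2.49 TPM. Replicate 2 was the highest for all 5. *LIN28A* and *LIN28B*, whose proteins block the maturation of let-7, had 0 reads, which allows up to 0.150 and 0.110 TPM.

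Among hosts linked with growth and with p53, 3 of 4 were expressed, against 12.2% of lncRNA genes. *MIR222HG* stood at 12.3, 17.2 and 12.3 TPM. *MIR17HG*, the host of the miR-17 to miR-92a cluster and a known target of MYC, stood at 11.5, 13.5 and 8.84 TPM. *MIR34AHG*, the host of miR-34a, a known target of p53, stood at 4.39, 6.67 and 4.61 TPM from 103, 161 and 92 reads. The fourth, *MIR34BHG*, the host of miR-34b and miR-34c, had 2 reads in all, both in replicate 1, at 0.332, 0 and 0 TPM.

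Of 13 other hosts of conserved microRNAs, 7 were expressed, against 12.2% of lncRNA genes. *MIR22HG*, the host of miR-22, stood at 14.7, 19.2 and 15.1 TPM. *MIR29B2CHG* stood at 5.599, 13.1 and 5.96 TPM, so that replicate 2 was 2.35 times replicate 1, the widest such ratio among the expressed hosts. On the other strand, exons of *CD46* and *CDCA4P4* together lie opposite 40.1% of its canonical transcript. The *MIR181A1HG* host, at 6.51, 7.25 and 5.35 TPM, was above *MIR181A2HG* in every replicate, the latter at 3.69, 4.36 and 2.79 TPM. *MIR23AHG* stood at 5.14, 7.89 and 4.86 TPM from 516, 814 and 415 reads. *MIR503HG* varied little, at 2.48, 2.92 and 2.61 TPM, while *MIR193BHG* stood at 1.42, 2.31 and 1.21 TPM. Among those below the cutoff, the hypoxia-responsive *MIR210HG* stood at 0.414, 0.402 and 0.0973 TPM from 5, 5 and 1 reads.

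Of the 41 hosts named for other microRNAs, 10 were expressed, against 24.9% of all genes and 12.2% of lncRNA genes. The highest was *MIR924HG* at 11.5, 16.5 and 11.99 TPM. *MIR3936HG* stood at 6.44, 11.2 and 8.12 TPM, and *MIR4435-2HG* at 7.42, 10.5 and 5.70 TPM. The value of *MIR4435-2HG* is uncertain, because 100% of its longest transcript matched the lncRNA gene *CYTOR*, with 99.1% identity in the longest stretch, and *CYTOR* was listed at 0 reads in all replicates. No other expressed host matched another gene over more than 6.78% of its length.

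Lower in the same group, *MIR646HG* stood at 3.27, 6.14 and 3.25 TPM and *MIR4458HG* at 4.90, 4.55 and 3.24 TPM. *MIR1915HG* was even across replicates, at 3.598, 3.84 and 3.05 TPM, and so was *MIR600HG*, at 1.81, 2.01 and 1.79 TPM. *MIR4453HG* stood at 3.10, 3.51 and 1.86 TPM. *MIR3677HG* rested on 11, 6 and 3 reads, at 3.86, 2.05 and 1.24 TPM, and 20.4% of its canonical transcript lies opposite exons of *RNPS1*. Only *MIR3677HG* and *MIR200CHG* among the 27 expressed hosts had fewer than 30 reads in all.

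The hosts of microRNAs known from other tissues did not reach the cutoff. Of 16 hosts linked with blood and immune cells, nerve, muscle, liver, pancreas and pluripotent cells, 0 reached 1 TPM, against 12.2% of lncRNA genes. In every replicate 11 of the 16 had 0 reads, where 64.3% of all lncRNA genes had 0 reads. The group was made after the values were seen, so its counts may reflect the choice of hosts. The most reads in this group were the 15 of *MIR137HG*, a host known from nerve cells, at a mean of 0.212 TPM. Of its canonical transcript, 37.3% is shared on the same strand with exons of *DPYD* and of its own hairpin gene. The 4 hosts of blood and immune cells had at most 1 read each. *MIR493HG* of the imprinted 14q32 cluster also had 0 reads, but 91.0% of its canonical transcript is shared on the same strand with 4 other genes, *MEG3* and *MEG8* among them, and reads there may not be assigned to it.

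In all, 56 hosts lay below 1 TPM by their mean. Of these, 24 had at least 1 read, and 16 of the 24 had at most 5 reads over the 3 replicates. The remaining 32 had 0 reads, 38.6% of the 83 hosts, against 64.3% of lncRNA genes. The limit that a count of 0 allows (3 reads per library) lay between 0.0666 and 1.07 TPM for these 32 and was under 1 TPM for 31. For *MIR4713HG* the limit in a single library ran from 0.992 to 1.20 TPM, around the cutoff. A joint limit over the 3 replicates was not computed.

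**Figure D2:**
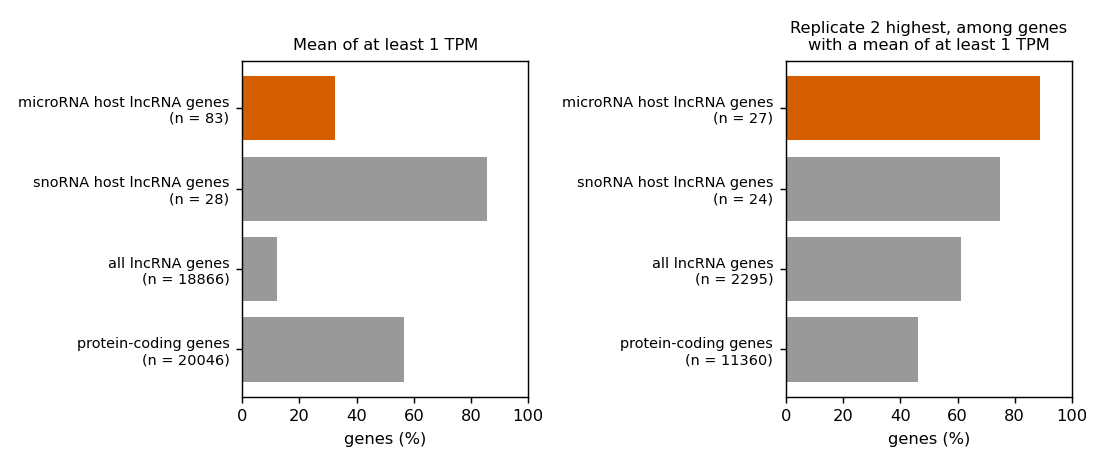
Percent of genes whose mean reached 1 TPM (left) and, among those, percent with replicate 2 as the highest (right), for microRNA hosts, snoRNA hosts, all lncRNA genes and protein-coding genes. MicroRNA hosts reached 32.5% and 88.9%, and all lncRNA genes, which include both host groups, 12.2% and 61.1%.

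The replicates disagreed on 5 hosts, which were at or above 1 TPM in some replicates and below it in others. This is 6.02% of the hosts, against 8.92% of lncRNA genes and 6.5% of annotated genes. *MIR762HG* was at 2.79, 3.75 and 0.938 TPM from 21, 29 and 6 reads, with 33.7% of its canonical transcript opposite exons on the other strand. *MIR663AHG* was at 0.633, 1.72 and 0.446 TPM, and *MIR5689HG* at 0, 1.98 and 0.684 TPM. *MIR130AHG*, the host of miR-130a, was at 1.02, 0.861 and 0 TPM from 15, 13 and 0 reads. *MIR365BHG* was seen in replicate 2 alone, with 3 reads and 1.21 TPM. The Poisson intervals of the lowest and the highest replicate lay apart for *MIR762HG* and *MIR130AHG* and overlapped for the other 3, and *MIR762HG* was the only 1 of the 5 with a mean of at least 1 TPM.

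Replicate 2 was the highest in 24 of the 27 expressed hosts, or 88.9%. The background was 61.1% of expressed lncRNA genes, 75% of the 24 expressed snoRNA hosts and 46.3% of expressed protein-coding genes. The exceptions were *MIR4458HG* and *MIR3677HG*, highest in replicate 1, and *MIR31HG*. For each of these the Poisson intervals of the lowest and the highest replicate overlapped. The median log2 ratio of replicate 2 to replicate 1 was 0.43 for the expressed microRNA hosts, 0.38 for lncRNA genes and -0.004 for protein-coding genes. With 1 condition, no test of this pattern was made, and what set replicate 2 apart was not tested. The 95% Poisson intervals of the lowest and the highest replicate lay apart in 16 of the 27 hosts (59.3%). This is near the 60.7% of expressed protein-coding genes and above the 48.4% of expressed annotated genes. The share was 50% for expressed snoRNA hosts and 18.8% for expressed lncRNA genes. Depth differed between these sets. Median reads were 313 for the hosts, 1538.5 for protein-coding genes, 772.5 for annotated genes, 1403.5 for snoRNA hosts and 41 for lncRNA genes. In those 16 the replicates differed by more than counting error alone.

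The median SD of log2(TPM + 1) across replicates was 0.28 for the expressed hosts and 0.36 for expressed lncRNA genes. The median coefficient of variation was 24.1% against 36.5%. *MIR205HG* and *MIRLET7BHG* each lay in all replicates above the whole range of the next host, and the other 25 overlapped their lower neighbour in range. Within single replicates more of the order held, and 10 of the 27 stood above the next host in every replicate, *MIR100HG* over *MIR22HG* and *MIR17HG* over *MIR3936HG* among them.

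The level of a host also depends on the gene length behind it. The deposited values matched whole reads divided by the length of the longest transcript. With the canonical transcript instead, TPM changed by factors of 0.811 to 7.20 in the 27 expressed hosts, and 9 moved by more than 1.5-fold. *MIR205HG* went to 1129 TPM, *MIRLET7BHG* to 137, *MIR17HG* to 81.1, *MIRLET7A1HG* to 77.6 and *MIR4435-2HG* to 50.03. *MIR31HG* went to 9.61 TPM. All 27 remained at or above 1 TPM, and *MIR99AHG*, at 2.49 TPM, and *MIR663AHG* joined them, making 29 expressed hosts. *MIR205HG* and *MIRLET7BHG* remained the highest and next highest. The rank of *MIR17HG* in particular, the 8th by deposited TPM and the third by canonical length, depends on this choice.

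**Figure D3:**
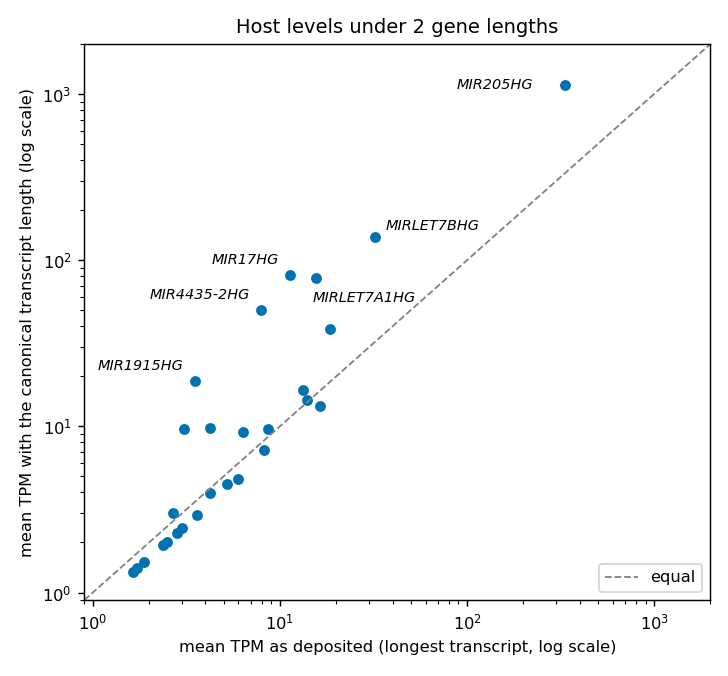
Mean TPM as deposited (longest transcript, horizontal) against mean TPM with the canonical transcript length (vertical), both on log scales, for the 27 expressed hosts, with equality as a dashed line. Points far above the line, such as *MIR17HG* (11.3 against 81.1), are hosts whose canonical transcript is much shorter than the longest.

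Reads on the hairpin genes themselves are given by their place in the host. In the 27 expressed hosts 52 annotated hairpin genes overlap the host on the same strand. The 25 that lie wholly in host exons had 0 reads, those of *MIR17HG*, *MIR22HG*, *MIRLET7A1HG*, *MIR23AHG* and *MIR34AHG* among them. Every base of these hairpins is also a base of the host, so a 0 there is no measure of the hairpin. Of the 23 in introns, 17 had reads, and of the 3 at an exon edge, 2 had reads. Over all 83 hosts, with the same limit, 0 of 53 exonic and 19 of 65 intronic hairpin genes had reads.

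Intronic hairpin genes held few reads. MIR3619, in an intron of *MIRLET7BHG*, had the most, with 10, 42 and 13. MIR125B1 in *MIR100HG* had 6, 8 and 1, and MIR200C in *MIR200CHG* had 2, 3 and 0. MIR31 had 0 in every replicate. MIR221, at an exon edge of *MIR222HG*, had 5, 3 and 0 reads, and MIR222, in an intron, had 0, 4 and 2. Apart from MIR205 and MIR3619, each hairpin gene had at most 15 reads in all.

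**Figure D4:**
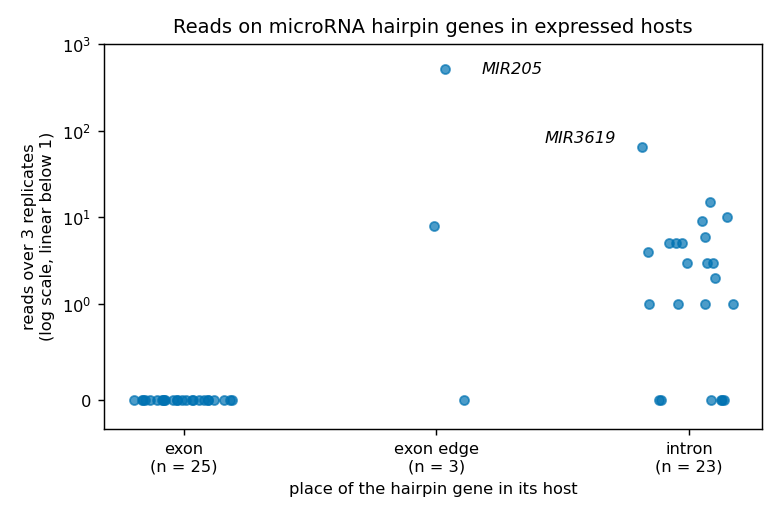
Reads summed over 3 replicates (log scale above 1, linear below) on hairpin genes of expressed hosts, by their place in the host. One hairpin at the outer edge of its host, with 0 reads, is not drawn. All 25 exonic hairpin genes lie at 0, MIR205 stands at 520 and MIR3619 at 65. Every base of an exonic hairpin is also a base of its host, so a 0 there is no measure of the hairpin.

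The machinery that turns host transcripts into microRNAs was expressed, with 22 of 24 listed genes at or above 1 TPM in every replicate against 55.2% of all protein-coding genes, and a median of 38 TPM over the gene means. *DROSHA* stood at 56.3 ± 8.08 TPM and its partner *DGCR8* at 37.2 ± 8.24 TPM. *XPO5* stood at 94.6 ± 12.8 TPM and *DICER1* at 25.4 ± 3.63 TPM. Of the Argonautes, *AGO2*, the member that can cut its target, stood at 58.1 ± 10.4 TPM, and *AGO4* was the lowest at 4.73 ± 0.439 TPM. The highest of the list were *RAN*, the partner of XPO5, at 864 ± 64.6 TPM, and the RNA-binding proteins *HNRNPA1* at 481 ± 47.7 TPM and *DDX5* at 309.6 ± 23.0 TPM. The 2 genes not expressed were *LIN28A* and *LIN28B*, whose proteins block the maturation of let-7.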

How the data were processed

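RNA-seq was analysed in 3 replicates of untreated MCF10A carrying an empty vector. Per the study's methods and labels, libraries depleted of ribosomal RNA were made from 300 ng of RNA and mapped to hg38 by the authors; STAR, fastp and MultiQC appear in the submitters' processing notes without versions. Which annotation release was used, and whether counting used strand, is not given in the sources used here. The authors deposited TPM values for 62754 genes, each replicate summing to 1000000, and these were used as they are. No column of values was left unused.

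Gene types, positions and transcripts came from GENCODE 44, in which 62700 genes were found. Reads were recovered as multiples of the smallest step of each library after multiplying TPM by the length of the longest transcript (less 1 base per exon), and all came out whole within 0.01. Depth was 11166546 to 15446347 reads. The recovery of reads was tested on simulated counts, and 100% were returned. The same lengths were used in both directions, so this does not test the lengths. Exact 95% Poisson intervals and the limit of 3 reads for a count of 0 cover counting error only. The cutoff was 1 TPM and the pseudocount 1. With 1 condition there is no contrast, and no test or p-value was computed. Transcripts of expressed hosts were compared with those of other genes by blastn 2.17.0, counting matches of at least 95% identity over at least 100 bases. MicroRNA sequences came from RefSeq, and 47 of 52 hairpins in expressed hosts were matched. Calculations used Python 3.11.15, numpy 2.4.6, pandas 2.3.3 and scipy 1.17.1, and plots matplotlib 3.10.9.

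Named in full were hosts with a mean of at least 1 TPM and those called differently between replicates. From each gene list the counts and leading genes are given (1 marker gene is not reported here), and from the processing and 9p21 lists also genes picked after their values were seen. The hosts and lists were chosen with earlier results of these data known, and the grouping of hosts by role was made after their values were seen. Alternatives were other scalings, cutoffs, pseudocounts and gene lengths, a filter on reads, and leaving out each replicate.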

Additional observations from a re-analysis of the deposited data

How the results depend on the processing

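The number of hosts at or above 1 TPM stayed between 24 (cutoff of 2 TPM) and 32 (cutoff of 0.5 TPM) under every alternative, was 29 when protein-coding genes were scaled to the same total, and was 27 to 29 when 1 replicate was left out. The number of hosts called differently was 3 with a filter of at least 15 reads, against 5 without it, since fewer hosts were counted, and ranged from 2 to 4 with 1 replicate left out, the 2 being without replicate 2. It was 6 with a cutoff of 0.5 or of 2 TPM. With canonical transcript lengths *MIR205HG* took 68.0% of the summed TPM of the hosts, against 61.8%, and 3 of the 5 highest hosts were shared with the deposited order. Leaving out 1 replicate gave shares of 61.4 to 62.3% and kept all 5. The median SD of log2(TPM + 1) was 0.11 without replicate 2 and at most 0.35 (without replicate 1), so that much of the spread between replicates came with replicate 2. With a pseudocount of 0.1 it was 0.32. Of the 27 single host means, 14 moved by more than 1 SD with canonical lengths, 4 with the protein-coding scaling and 1 with mitochondrial genes left out. No paired analysis was possible because the table holds a single condition, with no other group to pair with. Depth limits the hosts with few reads: a change in *MIR200CHG* or *MIR3677HG* between replicates rests on fewer than 30 reads in all.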

Other observations

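Many microRNAs sit in introns of protein-coding genes rather than in lncRNA hosts. Of 36 listed protein-coding hosts, 31 had a mean of at least 1 TPM, where 56.7% of all protein-coding genes did. The median of the means was 46.8 TPM over the list. The highest were *HNRNPK*, the host of miR-7-1, at 904 ± 75.7 TPM, *SMC4*, the host of miR-15b and miR-16-2, at 213 ± 20.1 TPM, and *MCM7*, the host of the miR-106b cluster, at 211 ± 23.4 TPM. *VMP1*, whose transcripts run into the gene of miR-21, stood at 89.8 ± 2.17 TPM. *TP63*, the basal transcription factor gene that hosts miR-944, stood at 49.8 ± 6.15 TPM. The lowest were *PDE2A* at 0.214 TPM, *IGF2* at 0.011 TPM and *ARPP21* at 0 reads. Of the canonical transcript of *IGF2*, 45.1% is shared on the same strand with exons of other genes, and reads there may not be assigned to it. The replicates disagreed on 2 hosts, *COPZ2* and *DNM3*. Such a gene's level is mostly that of its messenger RNA, and what it says of the microRNA was not tested.

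Of 10 listed lncRNA hosts with other kinds of name, 4 had a mean of at least 1 TPM, where 12.2% of all lncRNA genes did. *PVT1*, the host of miR-1204 and its neighbours, stood at 65.3, 168 and 59.9 TPM, so replicate 2 was far above both others. *DLEU2*, the host of miR-15a and miR-16-1, stood at 9.41, 15.2 and 7.96 TPM, and *FTX*, the host of miR-374 and miR-545 genes, at 6.45, 11.0 and 6.11 TPM. Both were also highest in replicate 2. *H19*, the host of miR-675, was lowest in replicate 3, at 6.11, 5.71 and 2.42 TPM. *CYTOR*, *LINC00461* and *MEG3* had 0 reads. The 0 of *CYTOR* is uncertain, given its match with *MIR4435-2HG*. Of its canonical transcript, 39.8% is also shared on the same strand with exons of other genes.

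For cell type markers that pointed away from breast epithelium, the fibroblast genes *DCN* and *COL1A1* stood at 9.05 and 4.96 TPM, the endothelial gene *PECAM1* at 1.77 TPM and the monocyte gene *CD14* at 1.96 TPM. Their part in the host levels was not tested.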
